A study of Saccharomyces cerevisiae with 13 samples.

Results

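The AAD genes of the budding yeast *Saccharomyces cerevisiae* encode putative aryl-alcohol dehydrogenases. The family was taken by name as the rows *AAD3*, *AAD4*, *AAD6*, *AAD10*, *AAD14*, *AAD15* and *AAD16*, which are 7 of the 7126 rows of the count lists. All 7 rows were found in all 13 libraries. The genes were selected on their counts in these libraries, since the family was picked with results of the comparisons known. The lists come from QuantSeq 3′ mRNA-Seq, which reads the end of each transcript, of BY4741, a haploid laboratory strain of mating type a, here called WT. Without plasmid, there were 2 libraries of untreated WT and 2 of WT given 50 mM caffeine for 1 h. The label of the second caffeine-treated library gives 51 mM, while its title gives 50 mM. The other 9 libraries carried a plasmid, and no caffeine is named for them. WT with the empty vector pRS426ADH, the *yap1* mutant with the same empty vector, and WT with pRS426ADH-YAP1 had 3 libraries each. The last of these, the Yap1 overexpression strain, reads *YAP1* from the strong *ADH1* promoter on a high-copy plasmid, on top of the chromosomal gene, and the study's strain list gives this plasmid with a TAP tag. Nothing in the labels says that replicates came from separate cultures, so the tests measure the spread between these libraries, which may be technical.

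The family is named for its similarity to the aryl-alcohol dehydrogenase of the wood-rotting fungus *Phanerochaete chrysosporium*, which reduces aromatic aldehydes to alcohols with NADPH. The yeast proteins belong to the aldo-keto reductases, and their natural substrates are not settled. Yap1 is a basic leucine zipper transcription factor that gathers in the nucleus under oxidative stress and activates genes of thiol metabolism, detoxification and drug export through Yap1-responsive elements (YREs) in their promoters. *AAD4* and *AAD6* are known from work on thiol oxidants as genes that respond through Yap1.

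Total counts per library ranged from 15508616 to 25609092, and the rows of the rRNA genes took 14.7% to 75% of them. The 7 AAD rows summed to 375 to 9902 counts per library. The *YAP1* row followed the labels, with 635 to 722 counts in WT with vector, 23285 to 25251 in the overexpression strain and 2 to 22 in the *yap1* mutant. Of the marker genes deleted in this strain background, *LEU2* and *MET17* had 0 counts in all 13 libraries, and *URA3*, which the plasmid restores, had 0 counts in the 4 libraries without plasmid. *HIS3* had 744 to 1974 counts, and its allele in this background is a partial deletion, so 3′ reads do not test it. *LYS2* had 312 to 897 counts, although the genotype given in the methods lists a *lys2* deletion. The a-cell gene *MFA1* had 352 counts in replicate 2 of WT with vector and 2024 to 4237 in the other plasmid libraries, and the α-cell gene *MF(ALPHA)1* had at most 57. The other a-cell genes did not all follow *MFA1* in replicate 2 of WT with vector. There *MFA2* and *STE2* were the lowest of the plasmid libraries (6776 and 1240 counts), *STE6* was the highest (994) and *BAR1* (935) was not extreme. Since this library stands apart in *MFA1*, the results that use it are also given without it where it changes them.

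The rows are not independent measures. Reads were counted over unique and multiple alignments, and the AAD genes are near copies of each other that lie in the outer parts of 6 chromosomes, 1639 to 17576 bp from the nearest chromosome end (RefSeq annotation, build R64). *AAD3* (YCR107W) is on the plus strand at chrIII:313890-314981, and *AAD4* (YDL243C) on the minus strand at chrIV:17577-18566. *AAD10* (YJR155W) is on the plus strand at chrX:727405-728271, and *AAD14* (YNL331C) on the minus strand at chrXIV:16118-17248. *AAD15* (YOL165C), on the minus strand at chrXV:1647-2078, is the shortest with 432 bp. The rows *AAD6* and *AAD16* are pieces of 1 sequence, annotated as a single pseudogene (YFL056C) at chrVI:14305-15431 on the minus strand. *AAD16* stands before *AAD6* in the lists, which are ordered by position, so it is the piece nearer to the 3′ end that QuantSeq reads. No other gene of this annotation overlaps any of them.

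Identity between pairs of genes ran from 76.0% (*AAD10* and *AAD15*) to 97.7% over 432 aligned bases (*AAD3* and *AAD15*). At the 3′ end, *AAD4* and the *AAD6*+*AAD16* pseudogene had their last 123 bases in common and a further 8 bases after the gene end. *AAD3* and *AAD15* had their last 52 bases and the next 75 bases in common. The last 75 bases of each gene are shown because a read within them can be assigned to each row with the same sequence. Where the reads fall was not examined. Capitals mark bases that do not match *AAD4* in the alignment (*AAD14* and *AAD10*) or *AAD3* (*AAD15*).
AAD4: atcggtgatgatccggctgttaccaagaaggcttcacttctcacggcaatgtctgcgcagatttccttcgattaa
AAD6+AAD16: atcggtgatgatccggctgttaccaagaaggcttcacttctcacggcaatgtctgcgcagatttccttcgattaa
AAD14: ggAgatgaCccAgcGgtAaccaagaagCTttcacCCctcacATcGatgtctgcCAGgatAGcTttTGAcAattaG
AAD10: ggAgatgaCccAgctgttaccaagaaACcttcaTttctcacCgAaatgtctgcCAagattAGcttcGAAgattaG
AAD3: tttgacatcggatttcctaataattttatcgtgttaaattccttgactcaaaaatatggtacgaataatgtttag
AAD15: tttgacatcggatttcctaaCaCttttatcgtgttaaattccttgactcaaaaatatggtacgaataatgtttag

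A read within the last 75 bases of *AAD4* therefore cannot be told from a read of *AAD16* by its sequence. *AAD14* and *AAD10* differ from *AAD4* at 23 and 16 of these 75 positions. Of the 75-base windows in the last 300 bases, 25.7% of those of *AAD4* and 21.7% of those of the *AAD6*+*AAD16* pseudogene occurred elsewhere in the genome. For *AAD14* the share was 0%, and for *AAD10* no window of the whole gene was found elsewhere. How reads with several alignments were divided between rows is not given in the sources used here. For that reason the sums *AAD4*+*AAD6*+*AAD16* and *AAD3*+*AAD15* and the sum of all 7 rows are given beside the single rows.

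The upstream regions also divide the family. Both strands were searched for the YRE, taken as TTACTAA or TGACTAA. Within 500 bases of the start codon, *AAD4* and *AAD6* each had 2 matches, *AAD15* had 1, and *AAD3*, *AAD10* and *AAD14* had none. Of 6020 genes, 17.1% had at least 1 match in this window and 1.74% had 2 or more. Matches to TTACTAA alone numbered 2 or more in 0.964% of the genes, *AAD4* and *AAD6* among them. The stretches that hold the matches are shown from R64, read along the strand of the gene, with the matches in capitals. They lie at chrIV:18906-19029, chrVI:15628-15693 and chrXV:2334-2360, each on the minus strand.
AAD4: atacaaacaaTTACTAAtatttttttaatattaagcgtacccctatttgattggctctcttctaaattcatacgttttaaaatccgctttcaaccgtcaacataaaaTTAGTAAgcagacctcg
AAD6+AAD16: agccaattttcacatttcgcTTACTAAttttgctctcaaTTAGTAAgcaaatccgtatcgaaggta
AAD15: tatagtaggaTTAGTCAcatttctgga

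In *AAD4* and *AAD6* 1 match was on the strand of the gene and 1 on the opposite strand. In *AAD4* they lay 447 to 453 and 350 to 356 bases before the start codon, and in *AAD6* 236 to 242 and 217 to 223 bases before it. The annotated gene YDL242W lies 392 bp upstream of *AAD4*, nearer than the farther of its matches. The annotated start of *AAD4* is 138 bases downstream of the position that aligns with the start of *AAD14*, with 94.9% identity between the sequences in that stretch. Counted from that position, the nearer match of *AAD4* lay at 212 to 218 bases. The annotated start of *AAD10* lies in the same way 264 bases inside the sequence that aligns with *AAD14*, and that of *AAD15* 667 bases inside it, at 64.7% identity. *AAD15* had a TGACTAA match on the opposite strand at 266 to 272 bases, and within 1000 bases a TTACTAA match at 640 to 646 (4.70% of all genes had 2 or more matches in that window). Both *AAD15* matches lie within those 667 bases, of which only 597 aligned with *AAD14*. The alignment of *AAD15* with *AAD6*+*AAD16* instead placed the start 809 bases upstream, at 67.9% identity. Whether each match lies in sequence that aligns with the body of a relative is therefore not settled. In the shorter window from 250 bases before to 50 after the start codon, where 10.9% of the genes had a match, only *AAD6* of the family had any. The 1000 bases were also searched for TTACAAA and TGACAAA. *AAD3* had a TGACAAA match at 783 to 789 bases and *AAD10* at 813 to 819. TTACAAA matches lay at 475 to 481 and 980 to 986 bases in *AAD4* and at 673 to 679 in *AAD15*. The share of all genes with these forms was not computed. A match describes the letters and is not shown to be a binding site.

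**Figure D1:**
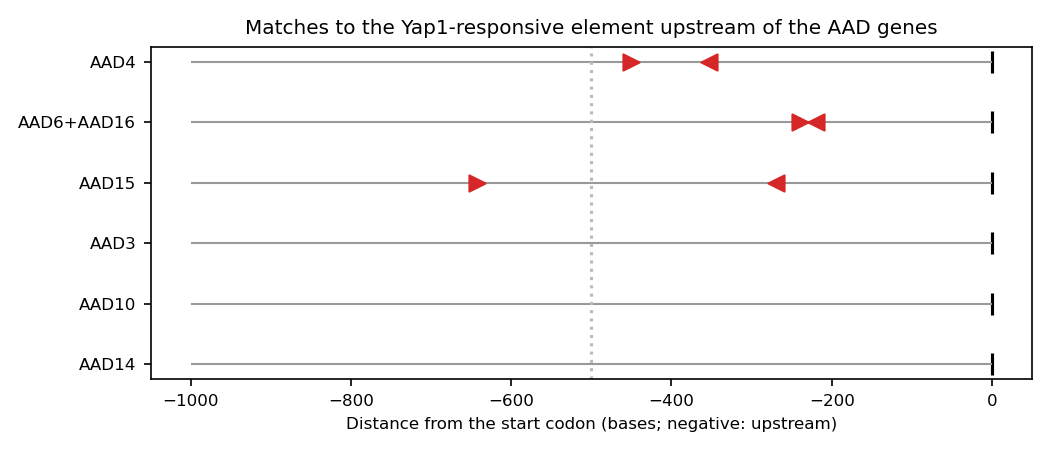
Positions of TTACTAA and TGACTAA matches in the 1000 bases before the start codon of the AAD genes, with distance in bases on the x axis and 1 line per gene. Triangles point right for the strand of the gene and left for the opposite strand, and the dotted line marks 500 bases. *AAD4*, *AAD6*+*AAD16* and *AAD15* have 2 matches each and the other genes have none.

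By fold change under Yap1 overexpression, *AAD4*, *AAD16* and *AAD6* rose most, and *AAD15* and *AAD3* rose less. *AAD10* and *AAD14* stayed near the level of WT with vector. As the family was selected on these libraries, the values of this comparison describe it and no p-value is given. Levels are CPM, counts scaled to a common library total, normalized by TMM within the plasmid libraries. *AAD4* had 4.73, 6.17 and 4.03 CPM in WT with vector and 234, 256 and 257 CPM in the overexpression strain. The 3 overexpression libraries lay close together, far above every WT library. The fold change was 49.9, or 5.64 on the log2 scale with a standard error of 0.22, and *AAD4* ranked 3 of the 6781 genes tested by log2 fold change.

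*AAD16*, the 3′ piece of the pseudogene, had 4.52, 3.26 and 2.48 CPM in WT with vector and 84.4, 83.1 and 93.9 CPM with overexpression. Its log2 fold change was 4.68 (SE 0.22), which placed it at rank 7. *AAD6*, the 5′ piece, had few reads, with 4, 20 and 4 counts in WT with vector and 208, 259 and 252 counts with overexpression. The groups did not overlap for either piece, and *AAD6* had a log2 fold change of 4.43 (SE 0.51) and rank 8. Without replicate 2 of WT with vector, which holds the 20 counts, the log2 fold change of *AAD6* was 5.48. Of the pseudogene pieces, *AAD16* holds the 3′ sequence shared with *AAD4*. Summed over *AAD4*, *AAD6* and *AAD16*, the level went from 8.85 ± 1.90 to 346 ± 17.2 CPM (SD, n = 3 each), 39.2-fold.

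*AAD15*, the short copy of the *AAD3* end, had 1, 22 and 16 counts in WT with vector and 91, 101 and 98 counts with overexpression, a log2 fold change of 2.69 (SE 0.60). *AAD3* had 1.76, 2.43 and 2.95 CPM in WT with vector and 7.84, 8.37 and 7.18 CPM with overexpression, a log2 fold change of 1.70 (SE 0.40). All overexpression libraries lay above all WT libraries for both rows. Without replicate 2 of WT with vector the log2 fold changes were 3.20 and 1.73. The sum of the pair, whose ends are alike, was 3.94-fold higher.

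*AAD10* had 4.46, 9.48 and 8.58 CPM in WT with vector and 11.0, 11.3 and 11.4 CPM with overexpression. *AAD14* had 9.52, 7.14 and 5.34 CPM in WT with vector and 10.7, 9.95 and 9.44 CPM with overexpression. The groups of *AAD10* were separate by a narrow gap and those of *AAD14* overlapped, with log2 fold changes of 0.57 (SE 0.28) and 0.46 (SE 0.24). For the record, 3 of the 7 rows had an adjusted p of edgeR under 0.05 and were higher, and 0.442% of all genes tested did. Nothing is read from this count, since the family was selected on these libraries. The groups did not overlap in 6 of the 7 rows, all higher, which held for 8.05% of all genes. The median log2 fold change was 2.69 over the 7 rows and 0.00 over all genes. The family sum was 25.3, 30.3 and 24.3 CPM in WT with vector and 361, 385 and 393 CPM with overexpression, 14.2-fold. Without *AAD4*, the log2 fold change of the sum fell from 3.83 to 2.59.

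**Figure D2:**
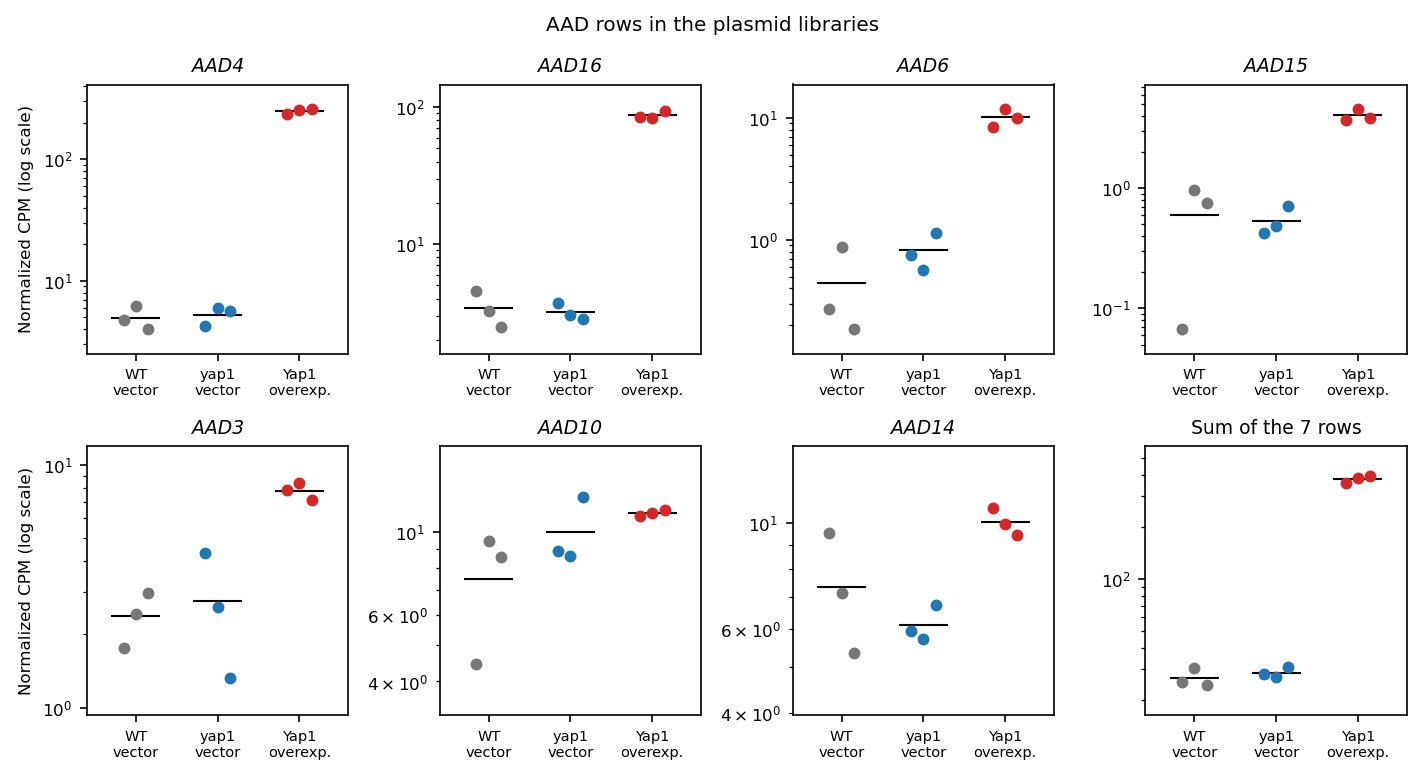
Normalized CPM of each AAD row and of their sum in the 9 plasmid libraries, on log axes that differ between panels. Points are libraries and lines are group means. The overexpression libraries of *AAD4* sit between 234 and 257 CPM, above the range of 4.03 to 6.17 CPM in WT with vector, while those of *AAD14* overlap WT.

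The *yap1* mutant was compared with WT, both with empty vector, to ask whether basal AAD levels differ without Yap1. This comparison shares the libraries of WT with vector with the one above. Its p-values are therefore open to the selection of the family and are given as a description. None of the 7 rows passed the threshold in edgeR, where 0.0737% of all genes tested did, and none had an unadjusted p under 0.05, where 10.2% of all genes did. No alternative called any of the rows it tested, and DESeq2 gave no adjusted p for *AAD6* and *AAD15*. *AAD4* had 4.21, 5.93 and 5.60 CPM in the mutant and *AAD16* had 3.70, 3.03 and 2.85 CPM. Both ranges overlap those of WT with vector, with log2 fold changes of 0.07 (SE 0.19, adjusted p = 0.898 in edgeR) and −0.08 (SE 0.21, adjusted p = 0.898). *AAD6* had 18, 13 and 24 counts in the mutant, and *AAD3* ran from 1.33 to 4.34 CPM.

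All 7 rows overlapped between mutant and WT, and 15.4% of all genes had groups that did not overlap. Beside such shares of all genes, having none among 7 rows does not set the family apart. Their log2 fold changes ran from −0.25 (*AAD14*, SE 0.24) to 0.82 (*AAD6*, SE 0.53), and *AAD10* had 0.40 (SE 0.28). Without replicate 2 of WT with vector, *AAD6* had 1.87 (adjusted p = 0.116 in edgeR) and *AAD15* turned from −0.21 to 0.29. None of the 7 rows passed the threshold there either, while 100 genes did against 5 with that library. The family sum was 28.3, 27.0 and 30.7 CPM in the mutant, a log2 fold change of 0.10 with a standard error of 0.14. With 3 libraries per group and levels of a few CPM, a difference of the size of these standard errors was not detectable.

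The *yap1* mutant and the overexpression strain were also compared with each other, within the fit of the 9 plasmid libraries. This comparison shares the overexpression libraries with the one above, so it too is a description. *AAD4*, *AAD16* and *AAD6* were lower in the mutant, with log2 fold changes of −5.57 (SE 0.22), −4.77 (SE 0.22) and −3.61 (SE 0.48). *AAD15* and *AAD3* had −2.90 (SE 0.60) and −1.50 (SE 0.39), *AAD14* had −0.71 (SE 0.24) and *AAD10* had −0.17 (SE 0.27). Of the 7 rows, 3 passed the threshold as lower, beside 0.664% of all genes, and 6 had groups that did not overlap, beside 9.94% of all genes. *AAD14* was among these 6, with 5.94, 5.71 and 6.73 CPM in the mutant, whereas *AAD10* was not. When only these 6 libraries were fitted, 6 of the 7 rows passed as lower, and over all genes 328 passed in either direction.

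The rows with the largest fold changes under overexpression belong to the genes with 2 YRE matches within 500 bases, *AAD4* and *AAD6*+*AAD16*. The rows *AAD4* and *AAD16* share 3′ sequence, so their reads may not be separate. *AAD15*, with 1 match before its annotated start, had 2.69 on the log2 scale (SE 0.60), and *AAD3*, with none, had 1.70 (SE 0.40). That pair also shares its 3′ end, and with these standard errors its order is not settled. *AAD10* and *AAD14*, with none, had the lowest fold changes. A part of the matches in these changes was not tested. In the same comparison and with the family left out, 11 of 99 tested genes with 2 or more matches passed the threshold as higher (11.1%), 10 of 908 with 1 match did (1.10%) and 6 of 4844 without a match did (0.124%). These counts are a description, since the grouping was made after the data were seen. In the *yap1* mutant, none of the 99 genes with 2 or more matches passed the threshold in either direction, beside 0.0737% of all genes. With so few genes passing, this count says nothing about these 99.

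Among the AAD rows, *AAD10* changed most with caffeine. It had 13.1 and 12.3 CPM in untreated WT and 47.1 and 82.3 CPM in caffeine-treated WT, on the scale of the libraries without plasmid. Both treated libraries lay above both untreated ones, although they differed from each other by more than the untreated pair. The rise was 5.10-fold, a log2 fold change of 2.35 with a standard error of 0.32 (adjusted p = 0.00241 in edgeR, over all genes). Since the family was selected on these libraries, the caffeine p-values of the AAD rows are open to that selection as well. They are given as a description. *AAD10* passed the threshold under every alternative that kept all libraries, with adjusted p up to 0.00327 (limma voom). With single libraries left out, its log2 fold change ran from 1.90 to 2.69. As given with the sequences, none of its 75-base windows occurs elsewhere in the genome.

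*AAD4* had 8.45 and 8.0 CPM in untreated WT and 16.0 and 14.4 CPM with caffeine. It rose 1.85-fold, a log2 fold change of 0.88 with a standard error of 0.25 (adjusted p = 0.0298 in edgeR). This call was lost when any 1 of the 4 libraries was left out, with adjusted p up to 0.124, while the log2 fold change stayed between 0.81 and 0.97. *AAD16* had 7.61 and 8.93 CPM without and 11.8 and 10.2 CPM with caffeine, a log2 fold change of 0.41 (SE 0.27, adjusted p = 0.266). The sum of *AAD4*, *AAD6* and *AAD16* was 1.58-fold higher with caffeine.

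*AAD3* had 5.87 and 4.34 CPM in untreated WT and 2.79 and 1.94 CPM with caffeine. Both treated libraries were below both untreated ones, with a log2 fold change of −1.11 (SE 0.40), which missed the threshold in edgeR (adjusted p = 0.0668). *AAD14* had 10.8 and 10.3 CPM without and 12.1 and 11.9 CPM with caffeine, a log2 fold change of 0.19 (SE 0.25, adjusted p = 0.559). *AAD6*, with 3 to 8 counts per library, and *AAD15*, with 7 to 13, had too few counts to be tested, and their groups overlapped.

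Of the 5 rows tested, 2 passed the threshold as higher with caffeine and none as lower, beside 22.2% and 23.6% of all genes. The groups did not overlap in 4 rows that were higher, beside 37.4% of all genes, and in *AAD3*, which was lower, beside 37.6%. Caffeine changed so many genes that these counts do not set the family apart, and by log2 fold change *AAD10* ranked 348 of the 6759 genes tested. The family sum rose from 46.4 and 44.6 CPM to 90.7 and 122 CPM, a log2 fold change of 1.22 with a standard error of 0.23, and without *AAD10* it was 0.34. *YAP1* itself had 774 and 953 counts without and 2058 and 1732 counts with caffeine, a 1.80-fold rise (adjusted p = 0.0197 in edgeR). The a-cell markers moved with the treatment as well, and 5 of 5 were lower with caffeine (median log2 fold change −1.78). Their part in the AAD results was not tested.

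**Figure D3:**
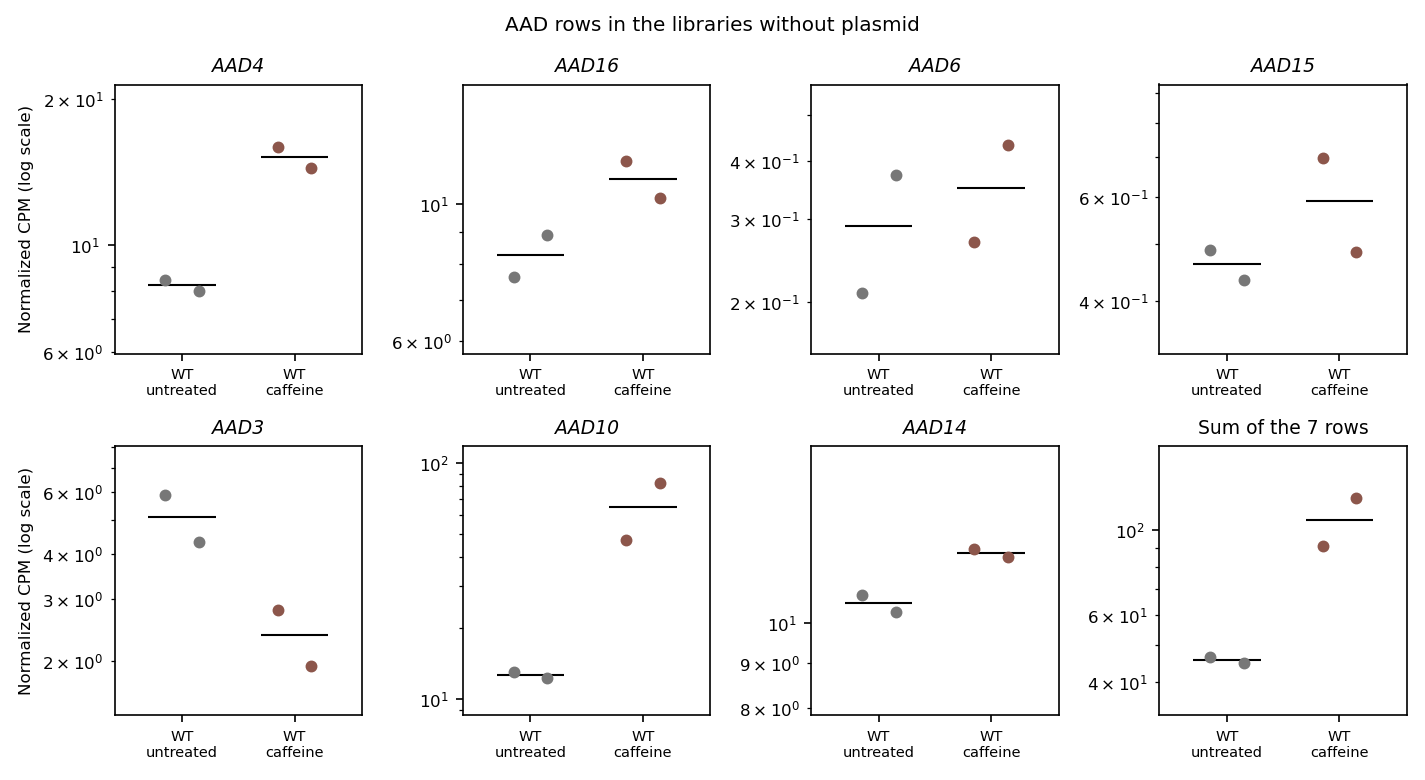
Normalized CPM of each AAD row and of their sum in the 4 libraries without plasmid, on log axes that differ between panels. Points are libraries and lines are group means. *AAD10* is at 47.1 and 82.3 CPM with caffeine and at 13.1 and 12.3 CPM without, and *AAD3* is lower in both treated libraries.

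**Figure D4:**
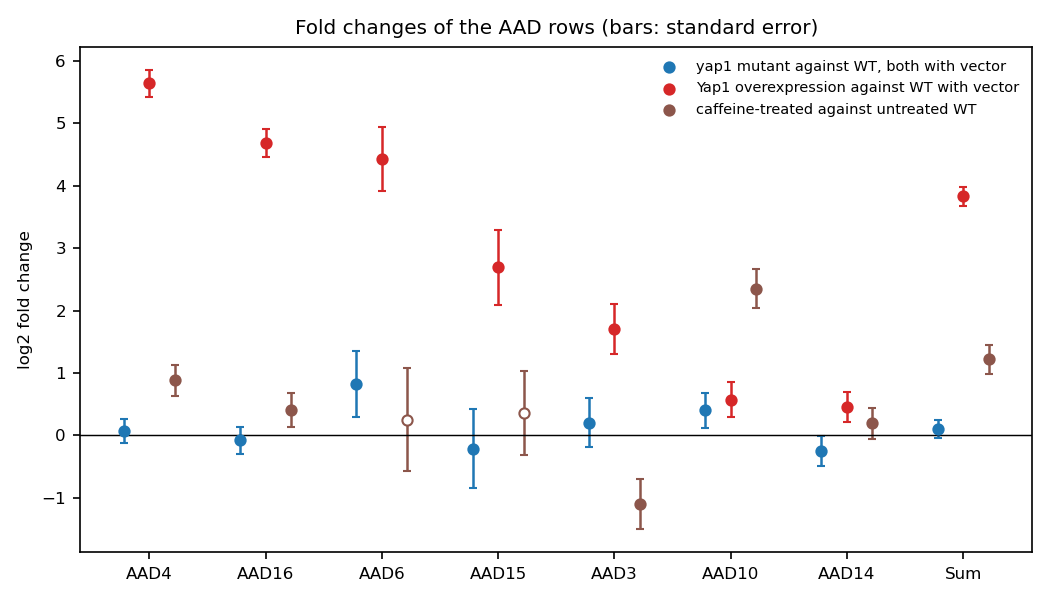
Log2 fold changes of the 7 rows and their sum in 3 comparisons, with bars of 1 standard error. Open points mark rows with too few counts for the test. The largest changes are those of *AAD4* (5.64) with Yap1 overexpression and of *AAD10* (2.35) with caffeine, and the *yap1* mutant lies between −0.25 and 0.82.

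The make-up of the family sum does not depend on how libraries are scaled. *AAD4* made up 18.5% of the AAD counts in WT with vector (16.6% to 20.3%), 18.4% in the *yap1* mutant, 18.1% in untreated WT and 14.7% with caffeine, but 65.6% (65.0% to 66.5%) with Yap1 overexpression. *AAD10* made up 59.8% (51.9% and 67.6%) with caffeine, 27.8% in untreated WT, 28.0% in WT with vector, 34.6% (31.5% to 40.3%) in the *yap1* mutant and 2.96% with overexpression. Divided by annotated length, the share of *AAD4* with overexpression was 66.9% and that of *AAD10* with caffeine 64.1%. *AAD4* was the leading member under overexpression. *AAD10* had the highest mean share in the other 4 groups, and its share was highest with caffeine. In WT with vector its lead over *AAD14* (mean 27.7%) was slight. *AAD10* ran there from 17.6% to 35.3%, and *AAD14* led in replicate 1 with 37.6%.

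**Figure D5:**
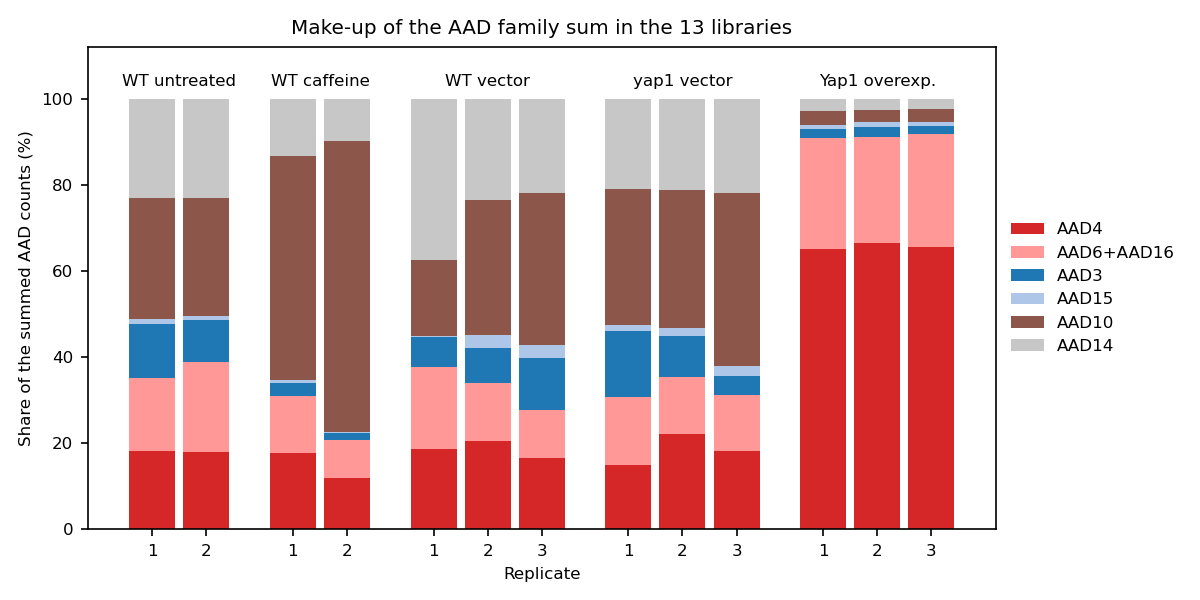
Share of each AAD gene in the summed AAD counts of each of the 13 libraries, in percent, with *AAD6* and *AAD16* summed. *AAD4* takes 65.0% to 66.5% in the overexpression libraries, and *AAD10* takes 51.9% and 67.6% in the caffeine-treated ones.

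Ratios of 2 rows within a library show the same split. The count of *AAD4* was 0.496 to 0.864 times that of *AAD14* in WT with vector, 0.709 to 1.04 times in the *yap1* mutant and 21.8 to 27.2 times with overexpression. The ratio of *AAD10* to *AAD14* was 1.21 and 1.19 in untreated WT and 3.88 and 6.91 with caffeine. *AAD4* and *AAD16*, whose ends are identical, did not keep 1 ratio. It was 1.04 to 1.89 in WT with vector, 1.14 to 1.97 in the mutant, 1.11 and 0.896 in untreated WT, 1.36 and 1.41 with caffeine, and 2.74 to 3.08 with overexpression.

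Across all 5 groups, on 1 scale set over the 13 libraries, the family sum was lowest in untreated WT (29.6 ± 0.59 CPM, SD, n = 2) and WT with vector (31.7 ± 3.76, n = 3). It was 34.2 ± 2.63 CPM in the *yap1* mutant (n = 3), 73.0 ± 16.2 with caffeine (n = 2) and 457 ± 23.0 with overexpression (n = 3). The lowest 3 groups have neighbouring ranges, since untreated WT falls within the range of WT with vector, which overlaps that of the mutant. The caffeine-treated and overexpression libraries each lay above all libraries of the groups below them. Levels were not tested between plasmid and no-plasmid libraries, where the plasmid and any other difference between the 2 sets cannot be told apart.

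The nearest 2 annotated genes on each side of the AAD genes gave 22 neighbours, of which 19 had enough counts. With Yap1 overexpression none of the 19 passed the threshold (log2 fold changes of −0.62 to 1.16), where 0.442% of all genes passed as higher. None did in the *yap1* mutant either, where 0.0737% of all genes passed. So few genes passed that these counts do not set the neighbours apart. The genes *AAD4*, *AAD6*, *AAD10* and *AAD14* each adjoin a member of the THI5 family, near-identical genes of vitamin B1 synthesis whose reads can be assigned to each other. *THI13* lies 350 bp from *AAD4*, *THI5* 353 bp from the *AAD6*+*AAD16* pseudogene, *THI11* 302 bp from *AAD10* and *THI12* 263 bp from *AAD14*. With caffeine, 4 of the 19 were higher and 3 lower, beside 22.2% and 23.6% of all genes, so these counts do not set the neighbours apart. *THI11*, beside *AAD10*, rose by 1.61 on the log2 scale (SE 0.38, adjusted p = 0.0166 in edgeR) and YJR154W, on its other side, by 1.04 (SE 0.28, adjusted p = 0.0246). *THI13*, beside *AAD4*, rose by 1.44 (SE 0.44, adjusted p = 0.0381). *SNZ2* and *SNZ3*, near copies of a vitamin B6 synthesis gene, were lower, at −1.05 and −1.23.

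The genes whose log2 CPM followed the family sum most closely over the 9 plasmid libraries, among 4488 genes of at least 10 CPM on average, were *HBN1* (r = 0.997), *ECM4* (r = 0.997), YKL071W (r = 0.994), *FLR1* (r = 0.992) and *ATR1* (r = 0.989). *ECM4* encodes a glutathione transferase, and *FLR1* and *ATR1* encode membrane transporters that export drugs. These values are a description, because the overexpression libraries form a cluster of their own that sets r. The log2 fold changes of the 5 genes with overexpression were 2.89, 2.95, 6.51, 4.39 and 2.30 in this order.

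Other enzymes of the same reaction class were set beside the family. Of 9 aldo-keto reductases outside it, none passed the threshold with overexpression (median log2 fold change 0.50) or in the *yap1* mutant. Of all genes, 0.442% passed as higher with overexpression and 0.0737% passed in the mutant. With caffeine 6 of the 9 rose and none fell, beside 22.2% and 23.6% of all genes. *GCY1*, a glycerol dehydrogenase, rose by 3.32 (SE 0.34, adjusted p = 0.00113 in edgeR), YJR096W, a xylose and arabinose reductase, by 2.80 (SE 0.37, adjusted p = 0.00228), and *GRE3*, an aldose reductase, by 2.00 (SE 0.34, adjusted p = 0.00517). Of 10 alcohol dehydrogenases of other folds, 2 were higher with overexpression, beside 0.442% of all genes. They were *SFA1*, a formaldehyde dehydrogenase (1.48 on the log2 scale), and *ADH6*, an NADPH-dependent enzyme that reduces aromatic aldehydes (1.26). In the mutant against the overexpression strain, 2 of the 10 were lower, beside 0.664% of all genes. With caffeine 2 of the 10 rose and 2 fell, shares close to those of all genes. *BDH2* and *BDH1*, the latter a butanediol dehydrogenase, rose by 3.96 and 2.07 on the log2 scale, and *ADH6* was lower (−1.04).

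The pathway that makes aromatic aldehydes from amino acids had 7 genes in the list, and all were tested. With caffeine 5 rose and 2 fell, beside the same shares of all genes. *ARO10*, the decarboxylase that forms the aldehydes, rose by 3.98 (SE 0.26, adjusted p = 0.000867 in edgeR), and *ARO9*, an aromatic aminotransferase, by 3.09 (SE 0.31, adjusted p = 0.00104). *PDC1*, the main pyruvate decarboxylase, fell by 1.63 on the log2 scale. None of the 7 passed the threshold in the plasmid comparisons, where few of all genes did. These were 0.442% higher with overexpression, 0.0737% in the *yap1* mutant and 0.664% lower in the mutant against overexpression.

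Of 15 genes of the Yap1 regulon, 5 were higher with overexpression, beside 0.442% of all genes. Among them was *OYE3*, an NADPH dehydrogenase (log2 fold change 5.15). None passed the threshold in the *yap1* mutant (median −0.35), where 0.0737% of all genes did. Against the overexpression strain, 8 of the 15 were lower in the mutant, beside 0.664% of all genes. With caffeine 2 of the 15 rose and 3 fell, a smaller share in each direction than the 22.2% and 23.6% of all genes. *GRE2*, a methylglyoxal reductase, rose by 2.42, and *GSH2*, glutathione synthetase, fell by 1.88 and *GPX2*, a peroxidase, fell by 1.04.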

How the data were processed

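Per the labels and the methods, the authors used Bowtie2 for alignment (sacCer3) and bedtools for counting, with uniquely and multiply aligned reads included. They deposited unnormalized counts, in 1 list for each library. A table of another study (60 value columns, mouse) was not used. Lists were joined by gene name, with 169 renamed rows paired by position. *AAD6* and *AAD16* appear as YFL056C and YFL057C in the 4 lists without plasmid and in that of replicate 2 of WT with vector.

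Counts were tested with edgeR 4.0.16 (R 4.3.3; filterByExpr, TMM, robust quasi-likelihood test, two-sided, Benjamini-Hochberg over all genes, threshold 0.05), with the 9 plasmid libraries in 1 fit and the other 4 in another. SE was obtained from the log2 fold change and the F statistic (absolute value over the root of F). In the family sums 1 summed row replaced the 7 rows. Alternatives were library size scaling, DESeq2 1.42.0, limma 3.58.1 voom with quality weights, other filters, 10 abundant rows left out, a replicate block, fits of 6 libraries and each library left out. Alignments used Biopython 1.88, and R64 sequence and annotation are from RefSeq.

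All members, lists and rules were chosen with earlier results of these data known. All 7 members and the 2 neighbours per side are named, and of other lists up to 3 genes past the threshold with the largest changes. The sums of near-identical members and the grouping of genes by YRE matches were added after the data were seen.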

Additional observations from a re-analysis of the deposited data

How the results depend on the processing

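The log2 fold changes of *AAD4*, *AAD16* and *AAD6* with Yap1 overexpression and of *AAD10* with caffeine kept their direction under all alternatives run. With caffeine, *AAD10* passed the threshold in each alternative that kept all libraries, a result open to the selection of the family. Library size scaling moved the median of all genes by 0.38 with caffeine, 0.37 in the *yap1* mutant and 0.45 with overexpression, and the family sums with it, to 1.61, 0.44 and 4.25. For the *yap1* mutant against overexpression the sum was −3.81. Without the most abundant member, the sums were 0.34 (caffeine), 2.59 (overexpression) and −2.48 (mutant against overexpression). The number of rows passing with overexpression was 5 under library size scaling and 5 under DESeq2. It was 3 to 5 with 1 library left out, where the 5 came without replicate 2 of WT with vector. In the mutant against overexpression it was 5 under DESeq2, 5 under voom and 6 in the fit of 6 libraries. Leaving out 1 library in the caffeine comparison left 1 row (1 to 1), *AAD10*, with a family sum of 1.00 to 1.41. A library left alone in its group was there assumed to vary like the other group.

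In the *yap1* mutant, where no row passed the threshold, several signs turned. Under library size scaling *AAD16* was 0.34, *AAD14* 0.16 and *AAD15* 0.019. Under voom *AAD3* was −0.082, *AAD16* 0.051 and *AAD15* 0.36. With 1 library left out, *AAD3* ran from −0.28 to 0.53, *AAD4* from −0.060 to 0.28, *AAD16* from −0.27 to 0.16 and *AAD15* from −0.67 to 0.29. The causes were not tested.

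Same-numbered plasmid libraries did not deviate together (correlations of −0.25 to 0.18), and nothing in the labels pairs them. The caffeine libraries had 0.41, but 2 pairs are too few to tell a pairing from the data, and the labels give none. With a replicate block, 3 rows passed with caffeine (*AAD3*, at −1.11 with adjusted p = 0.0247 in edgeR, was added), 0 in the mutant, 3 with overexpression and 3 in the mutant against overexpression. Over all genes, 3869, 1, 26 and 41 passed with the block, in the same order, where 3094 passed with caffeine in the main fit. The family sums were then 1.21, 0.11, 3.83 and −3.73. Rows with few counts limit the precision most, with *AAD15* at 1 count in replicate 1 of WT with vector and *AAD6* at 3 to 8 counts in the libraries without plasmid.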
